A study of Mus musculus with 6 samples.

Results

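The 10 genes described here are Cyb561, which encodes a membrane electron carrier, and 9 genes that handle iron at successive steps. These 9 are the membrane reductase genes Steap3 and Steap4, the uptake genes Tfrc and Slc11a2, and the ferritin genes Fth1 and Ftl1. The exporter gene Slc40a1 and the iron sensor genes Ireb2 and Aco1 complete them. Cyb561 was chosen from these data, because its level was higher in the DICER_KO libraries, and the other 9 were chosen by their role. The table held 13734 genes, and 9 of the 10 members had a row in it. Slc11a2, which encodes the divalent metal transporter DMT1, is not analysed here. All 9 members with a row reached at least 1 CPM (reads scaled to a common library size) in at least 3 libraries and so were among the 10054 genes tested.

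RNA was sequenced from white adipocytes that had been differentiated in culture from 1 immortalized mouse line of subcutaneous preadipocytes. All 6 cultures had the genotype Dicer1 flox/flox with Cre-ERT2, a recombinase that 4-hydroxytamoxifen activates, and all had been differentiated with insulin, rosiglitazone, T3, IBMX, dexamethasone and indomethacin. On day 6 the DICER_KO cultures (n = 3) received 10 µM 4-hydroxytamoxifen for 48 h, and the controls (n = 3), which the titles call WT although they carry the floxed alleles, received ethanol. Every culture was then given 10 µM isoproterenol, a beta-adrenergic agonist, for 6 h. The deletion of Dicer1, the gene of the RNase that makes mature microRNAs, and exposure to 4-hydroxytamoxifen cannot be told apart in this design. The labels call the libraries biological replicates without naming separate differentiations, so each p-value reflects the spread among the 6 libraries, which may be technical.

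The libraries held 13569034 to 30268077 reads on the genes of the table. Dicer1 checked the labels, at 6.09 to 6.14 log2 CPM in controls and 5.43 to 5.49 in DICER_KO, and fell by 0.66 (SE 0.10, limma adjusted p = 0.0150, and up to 0.147 with 1 library left out). Of 12 adipocyte markers all had a row, but DICER_KO replicate 3 stood apart: their median lay 1.18 log2 units below the control mean there (-1.18) and 0.59 above it in each of the other DICER_KO libraries. The summed level of these markers was 12.91 to 13.24 log2 CPM in controls, 13.61 and 13.59 in DICER_KO replicates 1 and 2, and 11.89 in replicate 3. Limma called 0 of the 12 with all libraries. Without DICER_KO replicate 3 it called 9 higher and 0 lower, where 12.5% of all tested genes rose and 7.22% fell. Lpl (-0.21, -0.38 and -1.44) and Cd36 (-0.24, -0.07 and -2.01) lay below the control mean in DICER_KO replicates 1, 2 and 3. In bulk RNA, fewer cells of a type and less RNA per cell cannot be told apart. Values without DICER_KO replicate 3 are therefore given beside the members' values, and the part of the adipocyte markers in these results was not tested. Of 12 macrophage markers 7 had a row, with a summed level of 5.21 to 5.42 log2 CPM in controls and 5.46 to 5.56 in DICER_KO. Lyz2, Mrc1 and Fcgr1 stayed below 1 CPM. Limma called 0 of the other 4, with 2 at an unadjusted p under 0.05 (1593 of all 10054 tested genes). Those were Cd68 (0.39, adjusted p = 0.163) and Mertk (0.75, adjusted p = 0.163). Both were higher in each DICER_KO library than in any control, as were 10.4% of all tested genes. Both rose without DICER_KO replicate 3 (adjusted p = 0.0334 and 0.00239), where 12.5% of all tested genes rose. Csf1r and Cd14 differed by -0.16 and -0.17. Preadipocyte markers summed to 12.94 to 13.13 log2 CPM in controls and 12.09 to 12.41 in DICER_KO. Col1a1 weighed most in this sum, at 2429 to 4902 CPM. Of the 9 tested 1 fell, the collagen gene Col3a1 (-1.44, limma adjusted p = 0.00856), where 0.288% of all tested genes fell. Without DICER_KO replicate 3, 4 of the 9 fell (Thy1, Col1a1, Col3a1 and Dcn), where 7.22% of all tested genes fell. The median difference of the 9 was -0.06 with all libraries. Pdgfra, Pdgfrb, Dlk1, Ly6a and Cd34 differed by -0.06 to 0.29. Endothelial markers summed to 2.47 to 2.68 in controls and 2.78 to 3.15 in DICER_KO, and 5 of 6 had a row. Pecam1, Cdh5 and Vwf stayed below 1 CPM, and limma called 0 of the other 2, with 1 at an unadjusted p under 0.05. Tek, like 10.4% of all tested genes, was higher in each DICER_KO library than in any control (0.67, adjusted p = 0.118). Kdr differed by -1.39 (0.319). Without DICER_KO replicate 3 Tek rose by 0.68 (0.0194) and Kdr fell by 2.07 (0.0130), where 19.7% of all tested genes were called. The part of these markers in the results was not tested. Erythroid markers were near 0, with Epor at most 0.597 CPM and Klf1 at most 0.419 CPM.

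Cells take up transferrin-bound iron through the transferrin receptor, and the ferric iron freed in the endosome must be reduced by a membrane reductase before a transporter can carry it to the cytosol. There it is used, stored in ferritin shells built of heavy and light chains, or exported by ferroportin, after which a ferroxidase returns it to the ferric form. When iron is scarce, the iron regulatory proteins IRP1 and IRP2, encoded by Aco1 and Ireb2, bind a stem-loop called the iron-responsive element. Binding in a 5′ UTR blocks translation, as for ferritin and ferroportin, and binding in the 3′ UTR protects the transferrin receptor mRNA from decay. A messenger RNA level therefore shows the second kind of control more directly than the first.

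The elements themselves are shown because they sort the members into these classes. They come from GENCODE M21 transcripts (GRCm38), searched for a bulged C, a stem with all 5 base pairs formed (G-T pairs allowed) and the loop CAGTGN, on the transcript strand, and are written with T for U. Capitals mark the bulged C and the 6 bases of the loop.
Fth1, 5′ UTR: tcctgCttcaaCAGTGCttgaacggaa
Ftl1, 5′ UTR: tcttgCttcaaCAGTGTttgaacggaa
Slc40a1, 5′ UTR: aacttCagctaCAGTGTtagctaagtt
Tfrc, 3′ UTR, site 1: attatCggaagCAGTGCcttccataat
Tfrc, 3′ UTR, site 2: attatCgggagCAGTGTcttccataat
Tfrc, 3′ UTR, site 3: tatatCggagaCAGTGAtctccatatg
Tfrc, 3′ UTR, site 4: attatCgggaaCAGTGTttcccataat
The Fth1 element lies at chr19:9982733-9982759 on the plus strand, the Ftl1 element at chr7:45459780-45459806 on the minus strand and the Slc40a1 element at chr1:45925466-45925492 on the minus strand. The 4 Tfrc elements begin 887, 1266, 1331 and 1378 bases into the 3′ UTR, between chr16:32631220 and chr16:32631737. Such a stem-loop was found in a 5′ UTR of 19 of 9448 tested genes with a protein-coding transcript (0.201%) and in a 3′ UTR of 72 (0.762%). The other members had no match of this form in a UTR, which says nothing of looser forms.

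Of the 8 members chosen by role, limma called 0 in either direction with all libraries, where 0.438% of all tested genes were called. An unadjusted p under 0.05 was reached by 3 of them and by 1593 of all 10054 tested genes. Limma-voom on the recovered reads also called 0 of the 8. The differences of these 8 ran from -0.22 to 0.60 on the log2 scale, and the median was 0.32 against 0.02 over all tested genes. Positive differences were seen in 7 of the 8 and in 5304 of all 10054 tested genes. Without DICER_KO replicate 3, limma called 5 of the 8 higher (Steap3, Tfrc, Fth1, Ftl1 and Aco1) and 0 lower, where 12.5% of all tested genes were called higher and 7.22% lower. Called in either direction were 19.7% of all tested genes in that fit, so the members' 5 of 8 stand against a high background. Dropping a library that stands apart also narrows the spread on which its p-values rest.

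**Figure D1:**
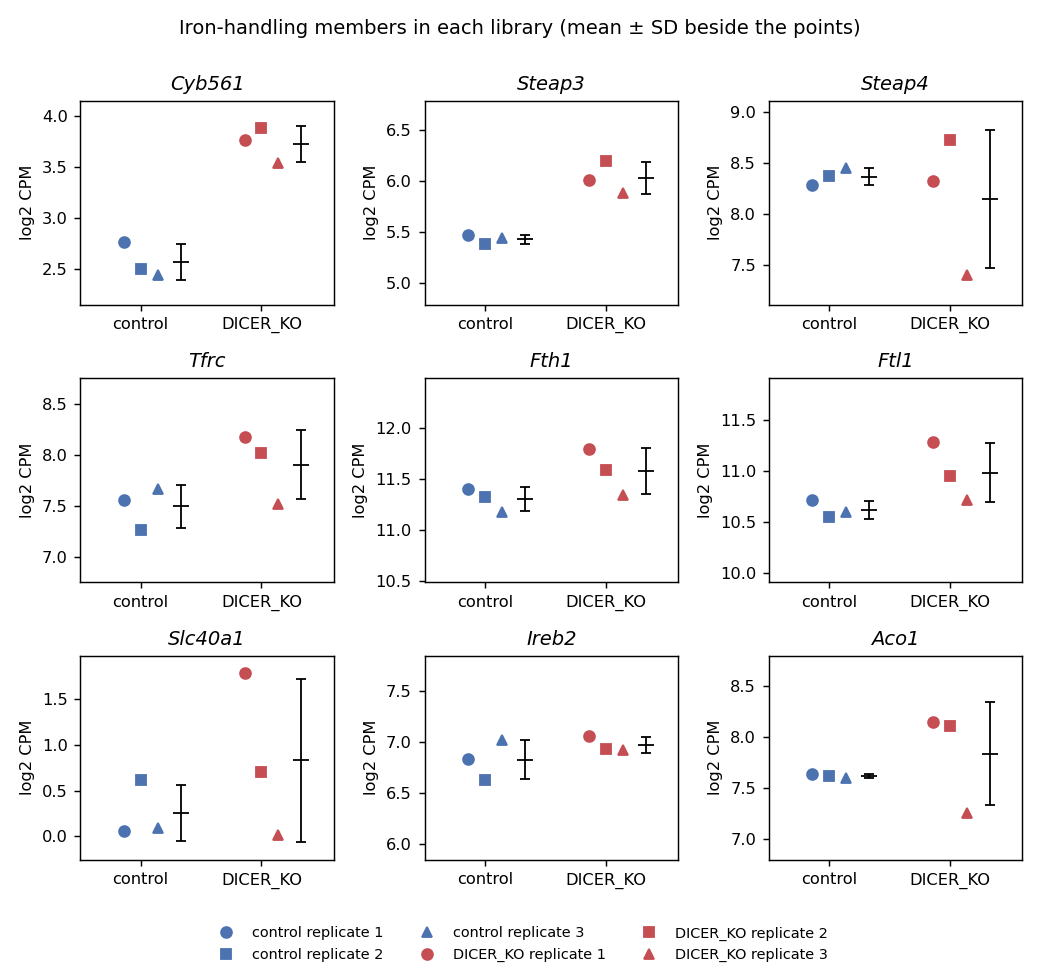
Level of each member in log2 CPM (vertical axis, 1 panel per gene) in the 3 control (blue) and 3 DICER_KO libraries (red), with symbols for replicates 1 (circle), 2 (square) and 3 (triangle) and the mean ± SD of each group as a black bar. Cyb561 and Steap3 are clearly separated between the groups, while DICER_KO replicate 3 lies within or below the controls for Steap4, Tfrc, Fth1, Slc40a1 and Aco1.

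Cyb561 encodes cytochrome b561, which passes electrons from ascorbate across vesicle membranes (Entrez 13056; GRCm38 chromosome 11, 105933702 to 105945019). It read 2.77, 2.50 and 2.45 log2 CPM in controls 1 to 3, and 3.77, 3.89 and 3.54 in DICER_KO replicates 1 to 3. All 3 DICER_KO values lay above all 3 controls, and the gap between the groups was wider than the spread within either. The control mean was 2.57 ± 0.17 and the DICER_KO mean 3.73 ± 0.18 (SD, n = 3). They differed by 1.16 (SE 0.16), or 2.23-fold. The rule chose Cyb561 for this difference, so it is a description and carries no test. It was a scarce transcript, with 125 to 160 reads per control library and 239 to 491 per DICER_KO library. The difference was 1.25 without DICER_KO replicate 3. In that library Cyb561 was 0.96 above the control mean, a value that belongs to the difference for which it was chosen. The adipocyte markers were low there, and their part in the Cyb561 difference was not tested.

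Steap3 encodes an endosomal ferrireductase best known from red cell precursors, where it serves transferrin iron (Entrez 68428; chromosome 1, 120226414 to 120271081). Its level was 5.47, 5.38 and 5.44 log2 CPM in controls, and 6.01, 6.20 and 5.88 in DICER_KO. The controls lay within 0.09 of each other and every DICER_KO library was higher than every control. Groups that did not overlap were seen in 20.2% of all tested genes, with DICER_KO higher in 10.4%, and among the 8 members chosen by role in Steap3 and Ftl1. The difference was 0.60 (SE 0.11), or 1.51-fold, and the limma adjusted p of 0.0577 missed the threshold of 0.05. It passed when all genes of the table were tested without a filter on low values (adjusted p = 0.0469) and without DICER_KO replicate 3 (0.67, adjusted p = 0.000405), and without any other single library the adjusted p ran from 0.108 to 0.241. Steap3 was thus the member chosen by role with the smallest p, and its difference stayed between 0.51 and 0.67 under every alternative run.

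Steap4 encodes a metalloreductase that is abundant in adipose tissue and responds to inflammatory cytokines and feeding (Entrez 117167; chromosome 5, 7960472 to 7982213). It read 8.28, 8.37 and 8.45 log2 CPM in controls, and 8.32, 8.72 and 7.40 in DICER_KO. The DICER_KO libraries fell on both sides of the controls: replicate 1 among them, replicate 2 above them and replicate 3 below them by more than the whole control range. The difference was -0.22 (SE 0.26, limma adjusted p = 0.672), and it was 0.16 (adjusted p = 0.347) without DICER_KO replicate 3. The value of -0.97 for Steap4 in that library stands beside -1.18 for the adipocyte markers, and the part of the markers was not tested.

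The relatives of these reductases showed no common direction. Of 7 listed genes 4 were tested, and limma called 0, with 1 at an unadjusted p under 0.05 (1593 of all 10054 tested genes). Steap1, a STEAP family member that lacks the domain that binds NADPH, read 5.31, 5.14 and 5.17 log2 CPM in controls and 4.86, 4.81 and 5.12 in DICER_KO. Its groups did not overlap, with DICER_KO lower, but the difference of -0.28 (SE 0.12) did not pass (limma adjusted p = 0.299). Without DICER_KO replicate 3, Steap1 fell by 0.37 (adjusted p = 0.0259), opposite in sign to Steap3. Cyb561a3 differed by -0.03, Cyb561d2 by 0.11 and the ferric reductase gene Frrs1 by 0.09, each with overlapping groups, and without DICER_KO replicate 3 by -0.10, 0.23 and -0.01, none of which passed. Cybrd1, the duodenal ferric reductase gene, was below 1 CPM in every library and was not tested, and Cyb561d1 and Steap2 are not analysed here.

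Because the cultures differ in Dicer1, the longest annotated 3′ UTR of each member was searched for matches to bases 2 to 8 of 14 microRNAs, a set chosen after the values were known. At least 1 match was found in 7 of the 9 members, and in 68.7% of the 9443 tested genes with a 3′ UTR. The ferritin genes had none, and their 3′ UTRs are short (159 bases in Fth1 and 166 in Ftl1, against a median of 1199 over tested genes). The miR-30 match, TGTTTAC, is shown because it is the only match of the 14 in Cyb561 and is shared with Steap3 and Tfrc. Capitals mark the seed in the microRNA (RefSeq, GRCm38.p6) and its match in each transcript (GENCODE M21, GRCm38).
mmu-miR-30a-5p: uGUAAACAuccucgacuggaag
Cyb561: cttgtacagtcaagTGTTTACa
Steap3: ccaagcgctggtttTGTTTACt
Tfrc: tggaccaatttgtcTGTTTACa
These windows lie at chr11:105933957-105933978 (minus strand), chr1:120224553-120224574 (minus strand) and chr16:32630864-32630885 (plus strand). The Steap3 window is in a GENCODE 3′ UTR of 3264 bases that runs past the end of the RefSeq gene. TGTTTAC occurred in the 3′ UTR of 16.5% of tested genes, and in 3 of the 9 members tested. Sharing was not limited to this match: that of miR-221-3p occurred in Steap4, Tfrc and Ireb2, and in 10.9% of tested genes. A match is a description of the sequence, and nothing in these files measures binding there.

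Tfrc encodes transferrin receptor 1, the main port of entry for transferrin iron (Entrez 22042; chromosome 16, 32608896 to 32632794). It read 7.56, 7.26 and 7.66 log2 CPM in controls, and 8.17, 8.02 and 7.52 in DICER_KO. DICER_KO replicates 1 and 2 were above every control, and replicate 3 was in the middle of them. The difference was 0.41 (SE 0.17), or 1.33-fold, and did not pass (limma adjusted p = 0.288). Leaving out DICER_KO replicate 3, Tfrc rose by 0.60 (SE 0.12, adjusted p = 0.00212).

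Fth1 encodes the ferritin heavy chain, which oxidizes iron as it enters the shell (Entrez 14319; chromosome 19, 9980600 to 9985111). It read 11.41, 11.33 and 11.18 log2 CPM in controls, and 11.80, 11.59 and 11.35 in DICER_KO. The groups overlapped through DICER_KO replicate 3, and the difference of 0.27 (SE 0.15, or 1.21-fold) did not pass (limma adjusted p = 0.387). Ftl1 encodes the light chain, which helps the iron core form (Entrez 14325; chromosome 7, 45457944 to 45459886). Its values were 10.72, 10.55 and 10.60 for the controls and 11.29, 10.95 and 10.72 for DICER_KO. Control 1 and DICER_KO replicate 3 print as the same value, so the groups were separated only by less than the rounding, and the difference of 0.37 (SE 0.16, or 1.29-fold) did not pass (adjusted p = 0.298). In the fit without DICER_KO replicate 3, Fth1 rose by 0.39 (adjusted p = 0.0322) and Ftl1 by 0.50 (adjusted p = 0.00885). Both genes have many processed pseudogenes, so reads shared with those copies make the 2 levels less certain than their depth of 33894 or more reads per library implies.

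The balance of these transcripts within a library was compared as a log2 ratio. Fth1 minus Ftl1 was 0.69, 0.79 and 0.58 in controls and 0.51, 0.64 and 0.63 in DICER_KO, so the groups overlapped and the heavy chain had more reads in each library. The means differed by -0.09 (exact two-sided permutation p = 0.4, adjusted over 2 ratios 0.6). Tfrc minus Fth1, receptor against storage, was -3.85, -4.08 and -3.53 in controls and -3.63, -3.57 and -3.83 in DICER_KO. The groups overlapped here too, with a difference of 0.14 (exact permutation p = 0.6, adjusted 0.6). Without DICER_KO replicate 3 the differences were -0.11 and 0.22 (exact permutation p = 0.4 for each, unadjusted). With 3 libraries against 3 such a test cannot go below 0.1.

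Slc40a1 encodes ferroportin, the one known exporter of iron from mammalian cells (Entrez 53945; chromosome 1, 45908070 to 45926532). It was the scarcest member, with 24, 34 and 24 reads in controls and 60, 39 and 42 in DICER_KO. On the log2 CPM scale that was 0.06, 0.61 and 0.09 in controls, and 1.78, 0.70 and 0.01 in DICER_KO. Replicate 1 alone was far above the controls and replicate 3 was the lowest of all 6 libraries. The difference of 0.58 (SE 0.41) did not pass (limma adjusted p = 0.475), nor did 0.99 without DICER_KO replicate 3 (adjusted p = 0.0504). Without DICER_KO replicate 1 it was 0.10.

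Ireb2 encodes IRP2, which is destroyed when iron is plentiful (Entrez 64602; chromosome 9, 54862658 to 54912534). It read 6.83, 6.63 and 7.02 log2 CPM in controls, and 7.06, 6.93 and 6.92 in DICER_KO. The DICER_KO values lay close together inside or just above the control range, and the difference of 0.14 (SE 0.12) did not pass (limma adjusted p = 0.537). Aco1 encodes IRP1, which is a cytosolic aconitase while it holds an iron-sulfur cluster (Entrez 11428; chromosome 4, 40143265 to 40199009). Its values were 7.64, 7.62 and 7.60 for the controls and 8.15, 8.11 and 7.26 for DICER_KO. The controls spanned 0.05, and the DICER_KO libraries lay on both sides of them. The difference of 0.22 (SE 0.20) did not pass (adjusted p = 0.568), and without DICER_KO replicate 3 Aco1 rose by 0.51 (SE 0.09, adjusted p = 0.00120), while Ireb2 differed by 0.17 (adjusted p = 0.308).

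Set side by side, the members differed in how they stood in DICER_KO replicate 3. In replicates 1 and 2 every member was above the control mean except Steap4 in replicate 1, at -0.04. In replicate 3 Cyb561 was at 0.96 and Steap3 at 0.45, Ftl1, Ireb2, Fth1 and Tfrc lay between 0.03 and 0.10, and Slc40a1, Aco1 and Steap4 were at -0.25, -0.36 and -0.97. The median of the 8 members chosen by role was 0.55, 0.40 and 0.04 above the control mean in DICER_KO replicates 1, 2 and 3, where the median of all tested genes was 0.03, 0.04 and 0.01.

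**Figure D2:**
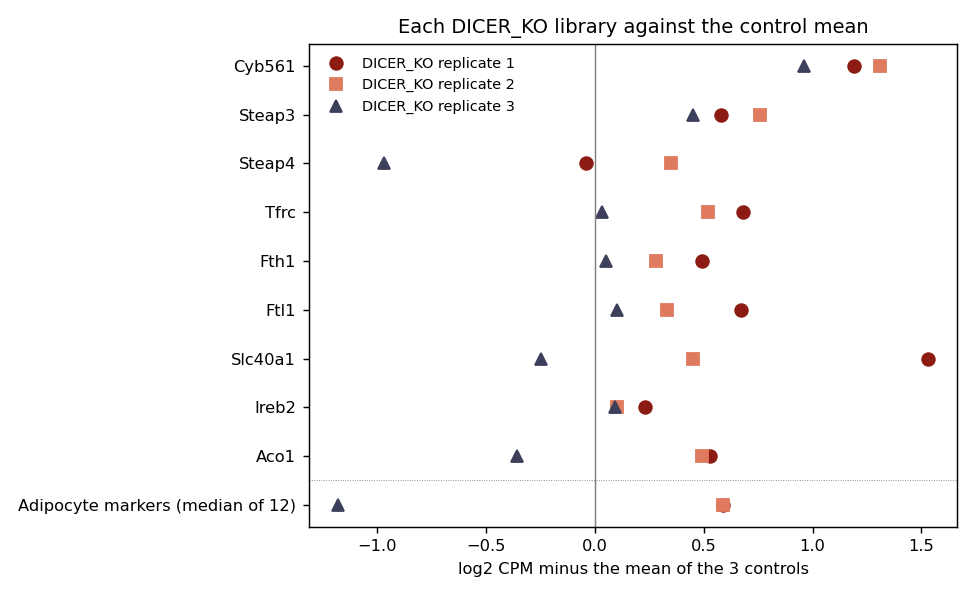
Level in each DICER_KO library minus the mean of the 3 controls (horizontal axis, log2 CPM) for the 9 members and for the median of the 12 adipocyte markers, with replicate 1 as circles, 2 as squares and 3 as triangles. In replicate 3, Cyb561 (chosen for its difference) and Steap3 lie farthest right of 0, and Ftl1, Ireb2, Fth1 and Tfrc lie just right of it. Steap4, Slc40a1, Aco1 and the adipocyte markers lie left of 0 in that library.

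To compare levels between genes, CPM was divided by the length of merged exons of the basic protein-coding transcripts in GENCODE M21. In controls the ferritin transcripts were the most abundant members, at 1630 ± 129 CPM per kilobase for Fth1 and 1630 ± 100 for Ftl1 (SD, n = 3), which overlapped. Steap4 followed at 105 ± 5.90, then Aco1 at 51.4 ± 0.822, Tfrc at 34.9 ± 4.85 and Ireb2 at 19.8 ± 2.72. Steap3 at 7.66 ± 0.240, Cyb561 at 2.15 ± 0.267 and Slc40a1 at 0.359 ± 0.0803 were the lowest. From Ftl1 downward no neighbours in this order overlapped over the control libraries. In DICER_KO, where Cyb561 reached 4.79 ± 0.580 and Steap3 11.6 ± 1.29, Steap4 overlapped with Aco1 and Aco1 with Tfrc. The order of the ferritin chains depends on the length taken: with the exons of all annotated transcripts, the control levels were 733 for Fth1 and 1180 for Ftl1.

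**Figure D3:**
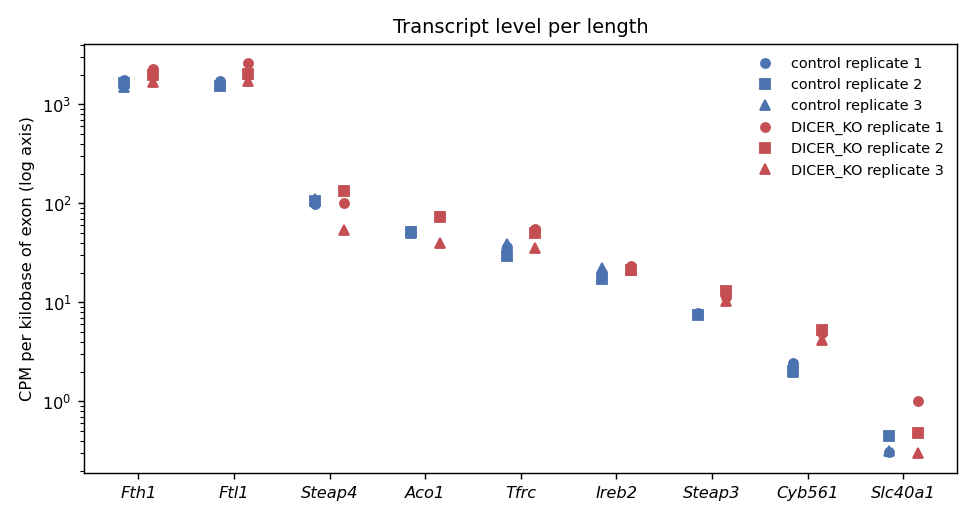
CPM per kilobase of merged exon (vertical log axis) for the 9 members in order of their control mean, with 3 control libraries in blue and 3 DICER_KO libraries in red. The ferritin genes stand well above every other member, and Slc40a1 is the lowest.

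Around the members, 89 further genes of iron and heme handling were listed, of which 65 were tested. With all libraries 2 of them fell, 0 rose and 63 did not pass, where 0.288% of all tested genes fell and 0.149% rose. Their median difference was 0.10, against 0.02 over all tested genes. The genes that fell were Slc39a14, whose product ZIP14 imports zinc and iron that is not bound to transferrin, and Cp, which encodes the copper ferroxidase ceruloplasmin. Slc39a14 read 8.08, 8.30 and 8.27 log2 CPM in controls and 7.54, 7.73 and 7.57 in DICER_KO, and fell by 0.60 (SE 0.11, limma adjusted p = 0.0489). Cp stood at 8.49, 8.58 and 8.72 in controls, against 7.68, 8.07 and 7.96 in DICER_KO, and fell by 0.69 (SE 0.12, adjusted p = 0.0489). In both genes every DICER_KO library, replicate 3 included, was below every control, as was the case for 9.81% of all tested genes.

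Both calls stood just inside the threshold. Without control replicate 1, 2 or 3 the adjusted p was 0.147, 0.214 and 0.121 for Slc39a14 and 0.163, 0.180 and 0.121 for Cp. Without DICER_KO replicate 1 or 2 it was 0.119 and 0.0777 for Slc39a14 and 0.107 and 0.0582 for Cp, and without replicate 3 it was 0.00119 and 0.000576. Limma-voom gave 0.0575 for each, and the fit with the replicate number as a block 0.145 for each.

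Slc39a14 and Cp belonged to the lists of iron import and of export. Limma called 0 of the other pathway genes with all libraries, as did limma-voom, and the genes named here were among those with the smallest p-values. Of the 8 tested genes of iron import, Scara5, a ferritin receptor, differed by 0.32 (adjusted p = 0.354) and Slc22a17 by -0.34 (0.415). Without DICER_KO replicate 3, Scara5 rose by 0.47 (adjusted p = 0.0242). Heph, which encodes the membrane ferroxidase hephaestin, read 3.65, 3.49 and 3.77 log2 CPM in controls and 4.46, 4.51 and 3.50 in DICER_KO, a difference of 0.52 (adjusted p = 0.317). Hephaestin and ceruloplasmin do the same chemistry, and Heph rose by 0.85 without DICER_KO replicate 3 (adjusted p = 0.000366), while Cp fell by 0.72 in that fit. Ncoa4, the receptor that delivers ferritin to the lysosome, differed by 0.14 (adjusted p = 0.543) and by 0.25 without that library (0.122).

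Of 8 tested regulators of iron, 0 reached an unadjusted p under 0.05, as 1593 of all 10054 tested genes did. Tmprss6, a protease of the hepcidin pathway, differed by -0.53 (adjusted p = 0.420), the hypoxia factor gene Epas1 by 0.22 (0.494) and Fbxl5, whose product marks IRP2 for destruction, by 0.11 (0.539). Of these Epas1 rose without DICER_KO replicate 3 (0.44, adjusted p = 0.00879). In heme breakdown, 1 of 4 genes reached an unadjusted p under 0.05. That was Hmox1, the inducible heme oxygenase gene that frees iron from heme, at 9.86, 9.91 and 9.67 log2 CPM in controls and 9.59, 9.39 and 9.50 in DICER_KO. The Hmox1 groups did not overlap, and the difference of -0.32 did not pass (adjusted p = 0.249), while without DICER_KO replicate 3 it fell by 0.33 (0.0464). Hmox2, the constitutive form, differed by 0.22 (0.329) and Blvra by -0.08 (0.712).

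Of 13 tested genes of heme synthesis and transport, 11 had positive differences, with a median of 0.11 and 0 at an unadjusted p under 0.05. Over all 10054 tested genes, 5304 had positive differences and 1593 an unadjusted p under 0.05. Pgrmc1 differed by 0.22 (adjusted p = 0.326) and Fech, which inserts iron into heme, by 0.14 (0.489). Of 17 genes of mitochondrial iron and cluster assembly, 16 had positive differences, with a median of 0.19 and 1 at an unadjusted p under 0.05. Bola3 differed by 0.42 (0.316) and Cisd2 by 0.26 (0.321), and without DICER_KO replicate 3 Bola3 rose by 0.62 (0.00640) while Cisd2, at 0.30, did not pass (0.0820). The medians of this list in DICER_KO replicates 1, 2 and 3 were 0.35, 0.32 and -0.03 against the control mean. Of 8 cytosolic assembly genes 3 had positive differences and 1 an unadjusted p under 0.05, with Ciao2a at 0.39 (0.245), Ndor1 at -0.20 (0.395) and Mms19 at -0.19 (0.431). The medians of the cytosolic list in the DICER_KO libraries were 0.04, -0.16 and 0.02, and Ciao2a rose by 0.52 without replicate 3 (0.00545).

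Without DICER_KO replicate 3, 17 of the 65 genes rose and 4 fell, where 12.5% of all tested genes rose and 7.22% fell. Of these, 9 belonged to mitochondrial iron and cluster assembly. Transcripts known to carry an iron-responsive element were also listed together, members included. Of the 8 listed 6 were tested, and limma called 0 with all libraries, as did limma-voom. An unadjusted limma p under 0.05 was reached by 2 of the 6 and by 1593 of all 10054 tested genes. The median of these 6 was 0.36, and it stood at 0.68, 0.46 and -0.09 in DICER_KO replicates 1, 2 and 3 against the control mean. Without replicate 3, 5 of the 6 rose. The 4 of the 65 that fell without replicate 3 were Slc39a14, Cp, Steap1 and Hmox1. In replicate 3 these were also lower than every control, the same controls that gave the calls. For Steap1 the margin was narrow, at 5.12 log2 CPM in replicate 3 against 5.14 in the lowest control. Groups that did not overlap, with DICER_KO lower, were seen in 6 of the 65 and in 9.81% of all tested genes.

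**Figure D4:**
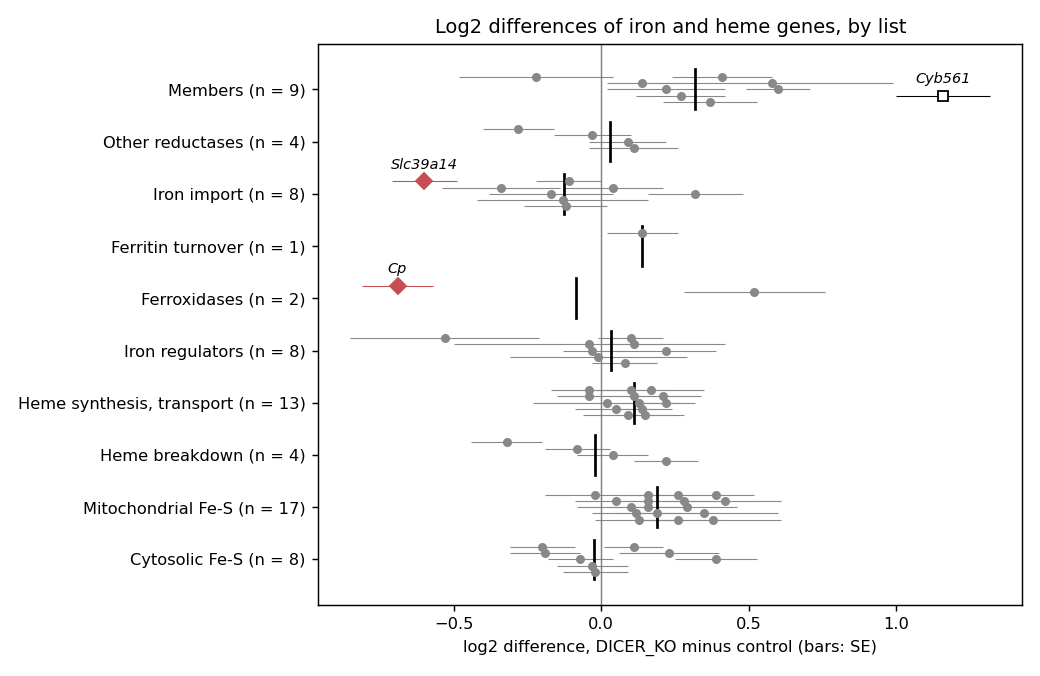
Log2 difference, DICER_KO minus control, of each tested gene (points, with SE) in the members and in 9 lists of iron and heme genes, with the median of each list as a black line. Cyb561 (open square) was chosen for its difference and left out of the members' median. Red diamonds mark Slc39a14 and Cp, which fell, at -0.60 and -0.69, and grey points did not pass.

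The genes whose log2 values followed those of Cyb561 most closely over the 6 libraries were taken from 8251 tested genes with a mean of at least 5 CPM. They were Itgb1bp1 (Pearson r = 0.997), Abcg2 (0.993), Cln3 (0.986), Cenpv (0.986) and Ccn3 (0.984). In all 5 the lowest DICER_KO value lay above the highest control, as in 10.4% of all tested genes. Choosing them for likeness to Cyb561, whose groups do not overlap, makes this likely. Their means differed by 0.30 to 0.58, and none of the 5 passed the limma test (the lowest adjusted p was 0.0707, for Ccn3). Those closest to Fth1 were Rnf14 (0.994), Ppt2 (0.993) and Tmem205 (0.991), which differed by 0.14, 0.26 and 0.35. These are descriptions over 6 libraries that share a group difference, and among 8251 genes some high values occur with so few points.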

How the data were processed

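Poly(A) RNA libraries (NEBNext Ultra II) came from 3 control and 3 DICER_KO cultures, per the labels. Tools listed in the submitters' processing notes are featureCounts, HISAT2, Trimmomatic, FastQC and edgeR, with the builds mm10 and GRCm38, and the series' design text names TMM scaling. Roles and versions are not given in the sources used here, nor is the use of strand. The authors deposited 1 column of log2 CPM per library, and 0 other columns were present. Each value equals the log2 CPM of a whole number of reads plus 0.5 (100% whole at a tolerance of 0.01 reads), so reads were recovered for depth and for limma-voom.

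Entrez IDs were named from RefSeq GRCm38.p6 (13682 of 13734 matched). Lists were matched by symbol, Trf through its older symbol. Limma 3.58.1 (R 4.3.3) with an intensity trend was fitted to the log2 values of 10054 genes that reached 1 CPM in 3 or more libraries, with group as the only term and Benjamini-Hochberg adjustment over all of them at 0.05. The fit was tested on simulated data with a spread common to all genes and no library that stood apart. The simulated shifts were larger than the differences of the members chosen by role. That test therefore does not cover small differences or a library such as DICER_KO replicate 3. Members and lists were chosen with earlier results of these data known. Named are the members, Dicer1, list genes past the threshold, up to 3 genes with the smallest p per list, the listed relatives of the reductases, and the genes most like Cyb561 (5) and Fth1 (3). Some genes that this rule names are not reported here. Alternatives changed the scaling, filter, pseudocount, test, replicate term and libraries. Python 3.11.15, numpy 2.4.6, pandas 2.3.3 and matplotlib 3.10.9 were used for tables, sequences and figures.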

Additional observations from a re-analysis of the deposited data

How the results depend on the processing

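Leaving out each library in turn moved the number of genes called over all tested between 1 and 1983 (44 with all libraries), of members called among the 8 chosen by role between 0 and 5 (0 with all), and of pathway genes called between 0 and 21 (2 with all). The highest of each came without DICER_KO replicate 3. Over these fits the differences ran from 0.51 to 0.67 for Steap3, 0.28 to 0.60 for Tfrc, 0.16 to 0.39 for Fth1, 0.21 to 0.50 for Ftl1 and 0.07 to 0.51 for Aco1. Steap4 ran from -0.51 to 0.16 and was positive only without DICER_KO replicate 3. Sample quality weights were fitted gene by gene, with control replicate 1 weighted highest at 3.84 and DICER_KO replicate 3 lowest at 0.242. With them limma called 3299 genes, 5 of the 8 members chosen by role and 23 pathway genes. In that fit Steap3 was at 0.64, Tfrc at 0.52, Ftl1 at 0.40, Slc40a1 at 0.95 and Aco1 at 0.43, all past the threshold, and Steap4 at 0.14. Without a filter on low values 1 of the 8 members chosen by role passed, Steap3 at 0.60. Pathway genes called numbered 1 with quantile normalization, 0 with a filter of 5 CPM (fewer genes tested) and 0 with limma-voom. The cause of these changes was not tested. With the replicate number as a block (replicate block) limma called 2 genes, 0 members and 0 pathway genes. The deviations of same-numbered libraries from their group means had correlations of 0.20, -0.01 and -0.08, and not every library correlated best with its own. With 3 libraries per group these values cannot decide whether same-numbered libraries were paired, and the labels do not say. The ratios kept their sign in every alternative run. Slc40a1 had 24 to 60 reads per library.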

Other observations

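Hephl1, which encodes a ferroxidase related to hephaestin, was singled out after its values were seen. It had 0, 0 and 1 reads in controls 1 to 3 (1 in all) and 5, 4 and 10 reads in DICER_KO replicates 1 to 3 (19 in all). It was below the filter in every library, and in the limma fit without a filter on low values its difference of 2.96 on the log2 scale (SE 0.79) did not pass (adjusted p = 0.128).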
